A study of Mus musculus with 2 samples.

Results

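The genes described are 10 members of the machinery that puts peptides on MHC class I molecules at the cell surface: H2-K1, H2-D1, H2-Q7, H2-T23, B2m, Tap1, Tap2, Tapbp, Psmb8 and Psmb9. They were chosen by symbol, by a rule that uses no measured values, though earlier results of these data were known. All 10 were found in both count tables, among 31054 gene rows. The study sorted cells from mouse breast tumours that carried EGFP and lacked tdTomato, and counted their RNA in single cells with unique molecular identifiers (UMIs), so that each count stands for 1 captured molecule. There were 2 libraries, 1 from a Met-1 xenograft tumour and 1 from a PyMT tumour, which arises in mice with the polyoma middle T transgene. The series' design text names EO771 and not Met-1 as the implanted line, and the sample label is followed here. Both libraries came from C57BL/6 mice with the 3 alleles of the inAd-Chaser-mTmG system, Adiponectin-rtTA, TRE-Cre and a Rosa26R mT/mG reporter, and the labels used here give no age and no number of animals. In these mice the Adiponectin promoter, which is active in adipocytes, drives the doxycycline-dependent activator, so that a doxycycline pulse switches adipocytes and their descendants from tdTomato to EGFP.

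MHC class I molecules show fragments of a cell's own proteins to CD8 T cells and to NK cells. Proteasomes cut the proteins, the TAP transporter moves the fragments into the endoplasmic reticulum, tapasin helps them onto a heavy chain, and beta-2 microglobulin must be bound for the complex to reach the surface. Nearly all nucleated cells carry this machinery, blood cells usually more than fibroblasts or epithelium, interferon gamma raises most of its genes together, and tumour cells can lose it.

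Of the 10 genes, 9 lie on chromosome 17 in or beside the H2 complex (GRCm38, GENCODE M21 annotation). The heavy chain genes span H2-K1 at chr17:33996017-34000347 (minus strand), H2-D1 at chr17:35262730-35267499 (plus), H2-Q7 at chr17:35439155-35443773 (plus) and H2-T23 at chr17:36029773-36032855 (minus). The loading and proteasome genes are Tapbp at chr17:33915899-33929292, Psmb9 at chr17:34181987-34187764 (minus), Tap1 at chr17:34187553-34197225, Psmb8 at chr17:34197721-34201454 and Tap2 at chr17:34203527-34216321, the others on the plus strand. Psmb9 and Tap1 run away from each other out of a shared start region, and their annotated spans overlap. B2m lies apart, at chr2:122147686-122153083 (plus). Class I promoters are known to pair an NF-kB-type site with an interferon-response site, and 3 heavy chain genes carry that pair in almost the same letters. These 3 stretches are shown because H2-K1, H2-D1 and H2-Q7 share them and yet were spread differently over the cells below. They are written 5′ to 3′ on the strand of the gene, from RefSeq sequence of GRCm38.p6, with capitals for matches to GGGNNTTCC and for the part TTTCACTTC, which read on the other strand matches GAANNGAAA.
H2-K1 (chr17:34000429-34000458, minus strand): GGGGATTCCccatctccacagTTTCACTTC
H2-D1 (chr17:35262923-35262952, plus strand): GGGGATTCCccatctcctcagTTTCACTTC
H2-Q7 (chr17:35439022-35439050, plus strand): GGGGATTCCcatctccccagTTTCACTTC

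The stretches begin 111, 171 and 133 bases before the RefSeq start of H2-K1, H2-D1 and H2-Q7. The 300-base windows around the starts are therefore offset from each other. Aligned over their full length with gap columns counted, H2-K1 and H2-D1 had 59.3% identity (214 of 361 columns). H2-K1 and H2-Q7 had 68.2% (221 of 324), and H2-D1 and H2-Q7 64.3% (218 of 339). The offset adds gap columns and lowers these values, so they do not measure how alike the bases beside the stretches are. RefSeq promoter windows, 250 bases before to 50 after the start, were matched for 9 of the 10 genes, Tap2 being the exception. On either strand, GGGNNTTCC was found in these 3 windows and in 5.82% of 32851 mouse promoter windows, and GAANNGAAA in the same 3 and in 7.52% of all. The interferon-stimulated response element, written as GAAA, any 2 bases and GAAA, sets its repeats a base farther apart than GAANNGAAA does and was found in B2m and H2-T23 and in 3.44% of all windows. CCAAT was found in 8 of the 9 windows against 37.4% of all, TGACG in 6 against 20.8%, with Tap1 and Psmb9 counted apart although their windows share 275 of 300 bases and these sites, and the STAT-type TTCNNNGAA in Psmb8 alone against 8.30%. The 250 bases before the starts of H2-K1 and B2m are given because the heavy chain and its partner parted most clearly in Met-1 luminal cells, with motifs in capitals, the pair shown above for H2-K1 and the interferon-stimulated response element for B2m. A match of letters is a description and not a sign that a factor binds there.
H2-K1 (chr17:34000348-34000597, minus strand): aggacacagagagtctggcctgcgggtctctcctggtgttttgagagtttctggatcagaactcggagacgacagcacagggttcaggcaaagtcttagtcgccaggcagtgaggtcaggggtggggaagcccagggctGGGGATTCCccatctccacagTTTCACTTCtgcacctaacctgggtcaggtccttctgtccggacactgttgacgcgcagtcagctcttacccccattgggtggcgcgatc
B2m (chr2:122147437-122147686, plus strand): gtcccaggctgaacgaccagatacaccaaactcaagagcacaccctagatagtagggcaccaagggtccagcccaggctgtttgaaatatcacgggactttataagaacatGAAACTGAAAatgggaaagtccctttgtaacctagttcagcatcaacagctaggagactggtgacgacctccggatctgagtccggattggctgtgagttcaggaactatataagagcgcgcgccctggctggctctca

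After filtering, 2112 of 2451 Met-1 barcodes and 589 of 619 PyMT barcodes were kept, with 19768692 and 4293854 UMIs and medians of 7684 and 3470 UMIs per cell. Cells were placed as immune, stromal, or luminal or tumour cells (luminal for short) when they held at least 5 UMIs of 12-gene marker lists and at least 70% of these fell in 1 list. The design text speaks of tumour fibroblasts, whereas 1666 Met-1 cells (78.9%) and 470 PyMT cells (79.8%) were placed as immune. There were 378 and 11 stromal cells and 36 and 85 luminal cells in the Met-1 and PyMT libraries, and 32 and 23 cells were left unplaced. Immune cells were split further into macrophage-like, neutrophil-like, T-like, NK-like and B-like cells and stromal cells into fibroblast-like and mural-like ones, named below without the suffix. The summed level of 5 adipocyte markers was at most 2.84 counts per 1e6 in any compartment, and all 5 were at 0 in PyMT stromal cells. Tumour and normal luminal cells cannot be told apart here, since the tables hold 0 rows for the PyMT transgene. The summed level of 10 immune genes kept out of the placing was 5089 and 7255 counts per 1e6 in Met-1 and PyMT immune cells, 361 and 698 in stromal cells, and 41.0 and 112 in luminal cells. Of these 10, 3 were at 0 in Met-1 luminal and 7 in PyMT stromal cells, and the luminal sums were 0.805% and 1.55% of those in immune cells. At least 3 UMIs of basal markers were found in 20 PyMT and 2 Met-1 luminal cells, and held-out luminal genes stood at 534 in PyMT immune against 9762 in luminal cells. Among immune classes neutrophils were highest, with 2632 in PyMT and 872 in Met-1, against 208 in PyMT macrophages, and the list holds Lcn2, which neutrophils also make. The part of such RNA in the member levels below was not tested. Levels are UMIs summed over the cells of a class per 1e6 UMIs of that class (CPM), with exact Poisson 95% intervals that cover counting error only. With 1 library a group there is no test. A call of higher or lower needed a 2-fold ratio of CPM + 10 and at least 50 summed UMIs on 1 side or the other, and printed folds are ratios of the CPM themselves, with exact binomial 95% intervals.

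Immune cells held the highest level of most of the class I genes in both tumours. Together the 10 genes made up 0.959% of all UMIs in Met-1 immune cells, 0.374% in stromal cells and 0.438% in luminal cells. In the PyMT library these shares were 1.06%, 0.414% and 0.617%. After each cell was thinned to 1000 UMIs, the median cell held 9 member UMIs in the immune compartment of both libraries, 3 in both stromal compartments, and 3.5 in Met-1 and 5 in PyMT luminal cells. Thinning left out 28, 14 and 6 Met-1 and 13, 0 and 2 PyMT immune, stromal and luminal cells below that depth.

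**Figure D1:**
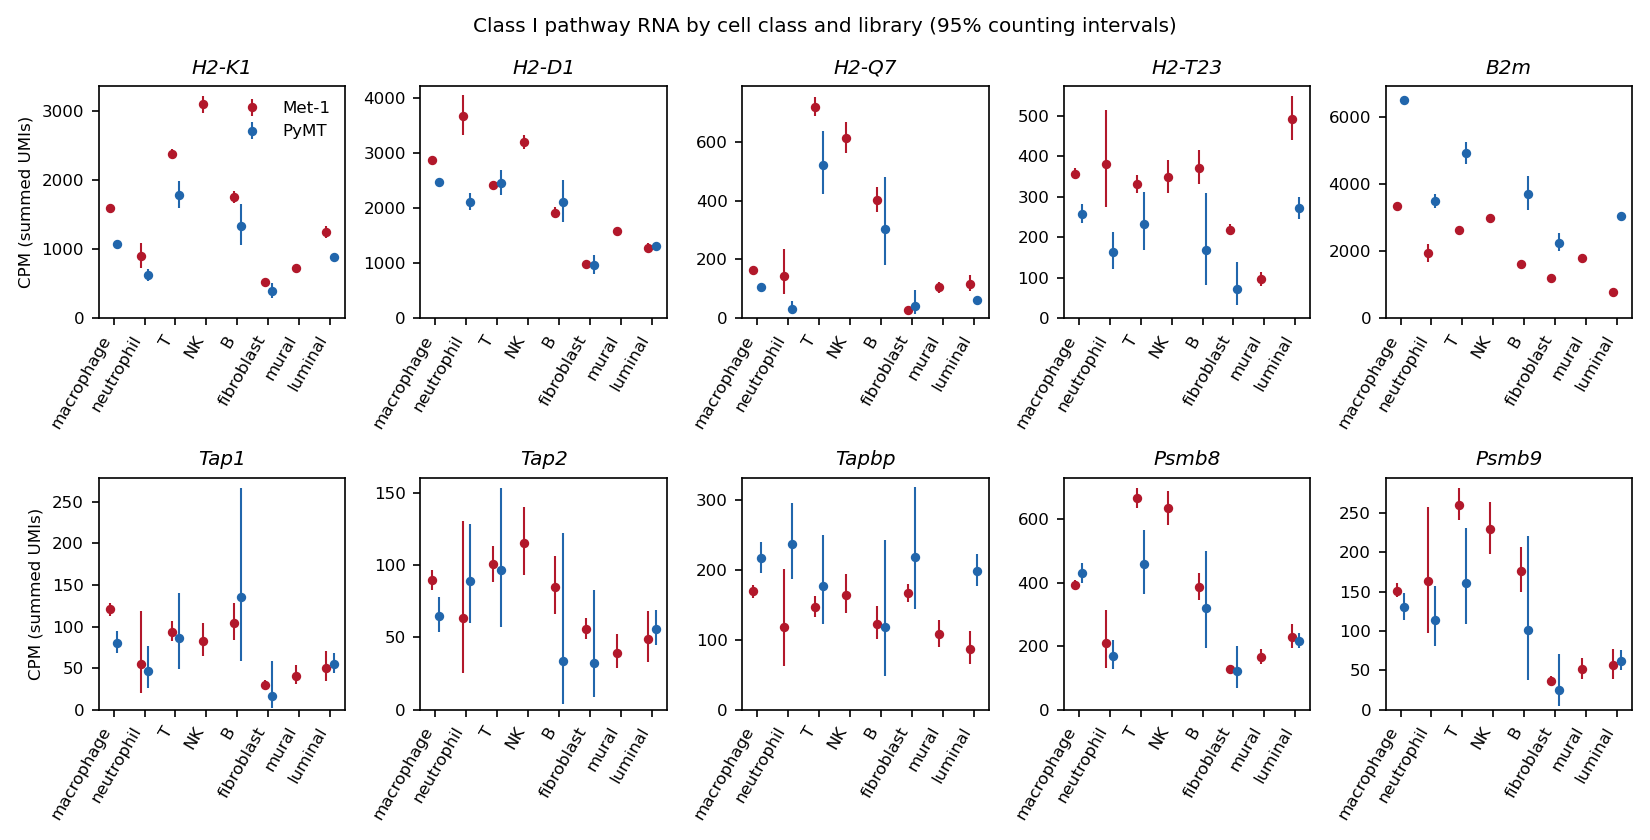
Level of each gene in CPM (points, axes from 0) with 95% counting intervals (bars) in each cell class with at least 10 cells, Met-1 and PyMT libraries apart. B2m is lowest in luminal cells in the Met-1 library and lowest in fibroblasts in the PyMT library, and the highest point for H2-T23 is the luminal one in both, overlapping neutrophils in Met-1 and macrophages in PyMT.

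Stromal cells were lower than immune cells of the same tumour in the heavy chains, B2m, Tap1 and both immunoproteasome subunits, and close to them in Tapbp. By the fold rule 7 of the 10 genes were lower in Met-1 stromal cells, beside 10.9% of all genes measured, and 8 of 10 in PyMT stromal cells, beside 28.4% of all genes. The median member had a log2 ratio of -1.38 in Met-1, where the median of all genes was 0.10, and -1.51 in PyMT, where it was -0.26. None of the 10 was called higher in stromal cells of either library, beside 18.1% of all genes in Met-1 and 10.5% in PyMT.

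H2-K1, a classical heavy chain that presents to CD8 T cells, stood at 2002 CPM (1978 to 2026) in Met-1 immune cells and 589 (570 to 610) in stromal cells. That is 3.40-fold lower in the stroma (3.28 to 3.52). In the PyMT library the levels were 1079 and 390, a 2.77-fold gap (2.08 to 3.76). H2-D1, the other classical heavy chain of C57BL/6 mice, stood at 2789 in immune and 1150 in stromal cells of the Met-1 tumour and at 2389 and 966 in those of the PyMT tumour, 2.43-fold and 2.47-fold lower. H2-Q7, a heavy chain of the Qa-2 type that NK and CD8 T cells recognise, had the widest stromal gap of the Met-1 library, 376 against 45.1 CPM or 8.35-fold lower (7.37 to 9.50). Its PyMT gap was 149 against 40.6, or 3.68-fold with a wide interval (1.56 to 11.4), since only 5 UMIs were counted in the stroma. H2-T23 encodes Qa-1, which presents leader peptides of other class I chains to the NK receptor CD94/NKG2A. It was at 358 against 194 in Met-1, 1.85-fold lower and not called, and at 237 against 73.1 in PyMT, 3.25-fold lower (1.70 to 7.14).

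B2m, the light chain common to all these heavy chains, was 2.24-fold lower in Met-1 stroma (1345 against 3006 CPM) and 2.58-fold lower in PyMT stroma (2257 against 5815). Among the loading genes, Tap1, one chain of the peptide transporter, was 3.37-fold lower in Met-1 stroma (33.0 against 111) and 4.82-fold lower in PyMT stroma, where it rests on 2 UMIs. Tap2, its partner chain, differed by 1.88-fold in Met-1 (51.0 against 95.6) and stood at 32.5 against 71.7 in PyMT, not called in either. Tapbp, or tapasin, which bridges the transporter and the heavy chain, was nearly level at 151 stromal and 161 immune CPM in Met-1. In PyMT its 219 stromal against 213 immune CPM turned to a log2 ratio of -0.23 when scaled by the median of gene ratios. Psmb8 and Psmb9 replace constitutive proteasome subunits in immunoproteasomes, which favour peptides that fit class I. Psmb8 was 3.60-fold lower in Met-1 stroma (137 against 495) and 3.27-fold lower in PyMT stroma (122 against 399). Psmb9 was 4.70-fold lower in Met-1 (41.2 against 194) and 5.62-fold lower in PyMT, on 3 stromal UMIs. The PyMT stromal side holds 11 cells, and with 50 UMIs required on both sides 2 of its 8 calls were made. In that setting 18 of 307 genes were called lower.

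**Figure D2:**
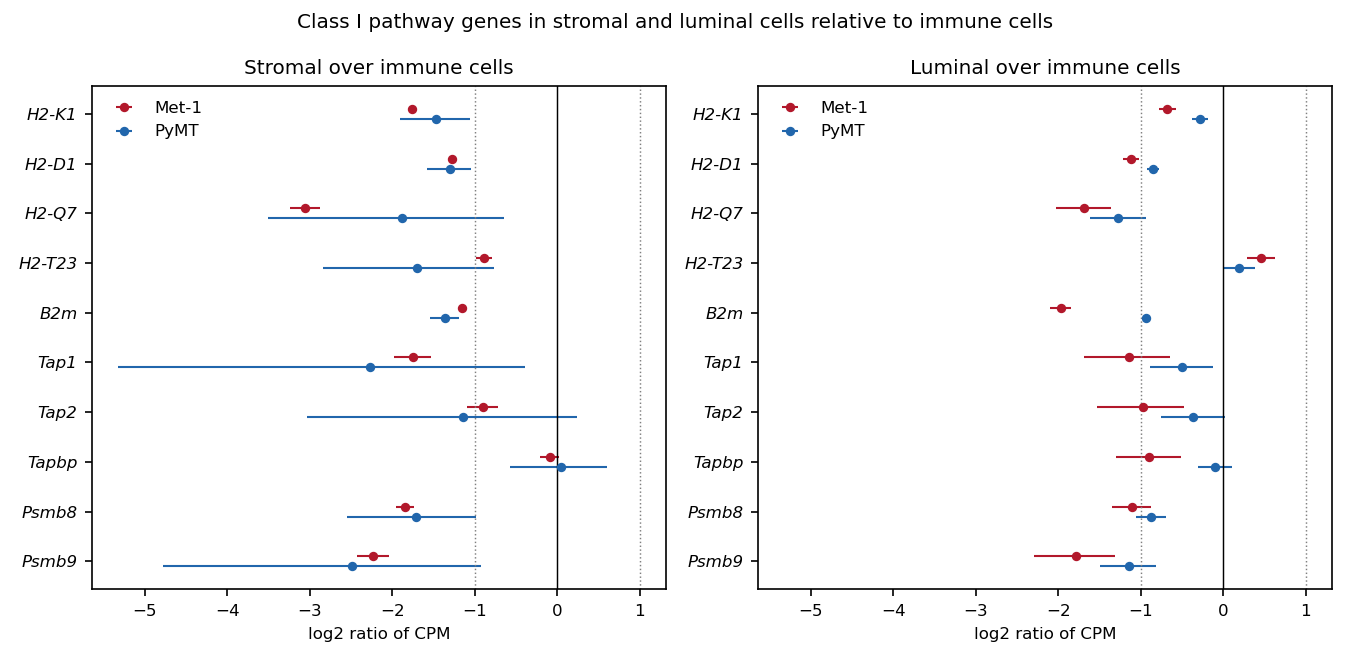
Log2 ratio of CPM (points, with 95% counting intervals) of each gene in stromal over immune and luminal over immune cells, Met-1 and PyMT libraries in separate colours; dotted lines mark 2-fold of the plain CPM ratio, while calls use CPM + 10. Stromal points lie below 0 except Tapbp in PyMT, and H2-T23 is above 0 in luminal cells of both libraries.

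Luminal cells were below immune cells in most of the genes in the Met-1 tumour, and by 2-fold in few of them in the PyMT tumour. In the Met-1 tumour 6 of 10 genes were called lower in luminal cells, beside 14.8% of all genes measured, and none higher, beside 10.4%. This count was 9 under median-of-ratios scaling, where the stromal one was 8, and 9 with each gene taken without its top cell. Over all genes the number called lower rose too, from 1484 of 10029 to 2035 with that scaling and 1847 of 9893 without top cells. In Met-1 stromal cells it rose from 1227 of 11226 to 1456 with that scaling. A top cell weighs more in a sum of 36 cells than of 1666, and leaving it out shifted the median of all genes by -0.24 log2. In the PyMT tumour 2 of 10 were called lower in luminal cells, beside 18.1% of all genes. The median member stood at -1.04 log2 in Met-1 and -0.64 in PyMT, against 0.00 and 0.18 over all genes. H2-T23 was the 1 gene with a higher summed level in luminal than in immune cells in both libraries, though by less than 2-fold.

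B2m stood at 3006 CPM (2977 to 3036) in immune cells and 768 (702 to 838) in luminal cells of the Met-1 tumour. It was 3.91-fold lower in luminal cells (3.59 to 4.28), and the luminal level was the lowest among the Met-1 classes. The log2 ratio of -1.96 became -1.33 with cell means and -2.43 without the cell with the most UMIs of these genes, settings under which H2-Q7 had the wider gap (-1.83 and -2.51). In the PyMT tumour B2m stood at 5815 in immune and 3043 in luminal cells, 1.91-fold lower (1.85 to 1.98), under the rule. The difference between the libraries in the luminal-over-immune ratio was -1.04 log2 for B2m, with a counting interval of -1.17 to -0.90, and -1.03 with macrophages in place of all immune cells. H2-K1 did not show a gap of that size, with 1249 against 2002 CPM in Met-1, or 1.60-fold lower, and 885 against 1079 in PyMT, or 1.22-fold lower. H2-D1 was 2.17-fold lower in Met-1 luminal cells (1282 against 2789) and 1.81-fold lower in PyMT luminal cells (1319 against 2389). The heavy chains and their light chain were thus not lower to the same degree in Met-1 luminal cells. Met-1 cells are known to come from an FVB mouse, whose H2 alleles differ from those of the C57BL/6 reference, and whether all heavy chain reads of implanted cells were counted was not tested. H2-Q7 was called lower in both tumours, 3.22-fold in Met-1 (117 against 376) and 2.42-fold in PyMT (61.7 against 149).

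H2-T23 stood at 492 CPM (440 to 548) in Met-1 luminal cells and 358 in immune cells, 1.37-fold higher (1.22 to 1.54), and at 271 and 237 in PyMT, 1.14-fold higher (1.01 to 1.30). Its direction depends on the scaling: it turned to -0.02 log2 in Met-1 and -0.22 in PyMT under median-of-ratios scaling, and to -0.02 in Met-1 when cell means were used. Of the last 500 bases of its transcripts, 38.1% of 50-base windows also occur in transcripts of other genes, so that some of its reads may not have been counted or may belong elsewhere. The same share was 9.53% for H2-D1, 6.21% for H2-Q7, 0.443% for H2-K1 and 0 for the other 6 genes.

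Among the loading and processing genes, Tap1 was 2.22-fold lower in Met-1 luminal than immune cells (50.1 against 111) and stood at 55.1 against 78.2 in PyMT. Tap2 was at 48.6 against 95.6 in Met-1 and 55.7 against 71.7 in PyMT, neither called. Tapbp stood at 86.5 against 161 in Met-1 and 198 against 213 in PyMT. Its luminal-over-immune ratio was 0.80 log2 units smaller in Met-1, a difference of -0.80 with a counting interval of -1.23 to -0.37. Both immunoproteasome subunits were called lower in Met-1 luminal cells, Psmb8 2.16-fold (229 against 495) and Psmb9 3.45-fold (56.2 against 194). In PyMT, Psmb9 was 2.22-fold lower (61.7 against 137) and Psmb8 1.83-fold lower without a call (218 against 399). Against macrophages alone, 4 genes were lower in Met-1 luminal cells, H2-D1, B2m, Tap1 and Psmb9, beside 16.9% of all genes, and only B2m in PyMT luminal cells, beside 16.8%. Both PyMT luminal calls against all immune cells were lost, with 0 of 10 left, when cell means replaced sums or when 90% of marker UMIs in 1 list were required. These settings called 1111 of 5890 and 1076 of 5411 genes lower.

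Luminal and stromal cells could be set against each other with no immune cells involved. In Met-1, H2-K1 was 2.12-fold higher in luminal than stromal cells, H2-Q7 2.59-fold and H2-T23 2.54-fold, 3 of 10 beside 6.59% of all genes called higher. None was called lower, beside 18.6%. B2m went the other way, 1.75-fold lower in luminal cells and not called. In PyMT, 4 of 10 were higher beside 26.6% of all genes: H2-K1 2.27-fold, H2-T23 3.72-fold, Tap1 3.39-fold and Psmb9 2.53-fold, and the intervals of Tap1 and Psmb9 reach below 1 (0.910 and 0.841). None was lower, beside 7.22% of all genes. B2m was 1.35-fold higher there, so that the 2 tumours differed by -1.24 log2 in its luminal-over-stromal ratio (-1.46 to -1.02). None of the 4 PyMT calls has 50 UMIs on both sides, and under median-of-ratios scaling 0 of the 10 genes were higher in Met-1 and 2 lower. That scaling called 390 of 9156 genes higher and 2167 lower in Met-1, and it shifted the median of all genes by -0.25 log2.

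A single cell carried much of the Met-1 luminal signal. It held 52708 UMIs, 8.0% of those of the 36 luminal cells, and 820 member UMIs, 28.4% of theirs, and it had the most UMIs of any luminal cell for each of the 10 genes. Of the luminal UMIs it gave 31.7% for H2-K1 (261 of 823), 34.0% for B2m (172 of 506) and 54.5% for H2-Q7 (42 of 77). Its 500 luminal, 9 immune and 6 stromal marker UMIs and 1 UMI of the held-out immune genes place it clearly among luminal cells. Without it, 8 of 10 genes were called lower in Met-1 luminal than immune cells, H2-K1 at -1.10 log2, B2m at -2.43 and H2-Q7 at -2.51, and H2-T23 kept its direction at 0.28. Of all genes, 1491 of 10010 were called lower in that setting. Against stromal cells H2-T23 then was the 1 member called higher (1.13), B2m was called lower (-1.27), and H2-K1 and H2-Q7 stood at 0.64 and 0.30, under the rule. There 594 of 9142 genes were called higher and 1716 lower. In the PyMT library the cell that held the most member UMIs gave 4.51% of those of the luminal cells and was the top cell for 3 genes.

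Luminal cells were more unequal in B2m than immune cells, as seen in cells with at least 10000 UMIs, where the level of 1 cell can be read. Deep Met-1 immune cells ranged from 748 to 7559 CPM of B2m (n = 467) and PyMT ones from 1258 to 10790 (n = 79), 10.1-fold and 8.57-fold between the extremes. In deep PyMT luminal cells (n = 60) B2m ran from 76.0 to 17688, 233-fold, with quartiles of 397 and 4365 around a median of 2757. In deep Met-1 luminal cells (n = 15) it ran from 61.9 to 3263, 52.7-fold, around a median of 509. Most deep Met-1 luminal cells thus lay below every deep immune cell of that library, whereas the PyMT ones spread from below to above their immune cells. Deep Met-1 stromal cells spanned 83.8 to 5781, 69.0-fold (n = 255). H2-K1 had a median of 1797 in deep Met-1 immune, 417 in stromal and 1044 in luminal cells, with luminal extremes of 170 and 4952, and a median of 969, 353 and 744 in the PyMT classes, where luminal cells ran from 0 to 4446. In these luminal cells H2-K1 and B2m went together, with a Pearson correlation over cells of 0.92 in Met-1 (n = 15) and 0.68 in PyMT (n = 60), beside 0.41 and 0.58 in immune and 0.61 in Met-1 stromal cells. H2-K1 and H2-D1 had correlations of 0.81 and 0.80 in luminal cells, 0.55 and 0.70 in immune cells and 0.69 in Met-1 stromal cells. The values of H2-K1 and H2-T23 were more loosely tied in luminal cells (0.52 and 0.45). These correlations describe cells that share a library and a total as denominator, and the Met-1 cell described above is 1 of the 15.

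**Figure D3:**
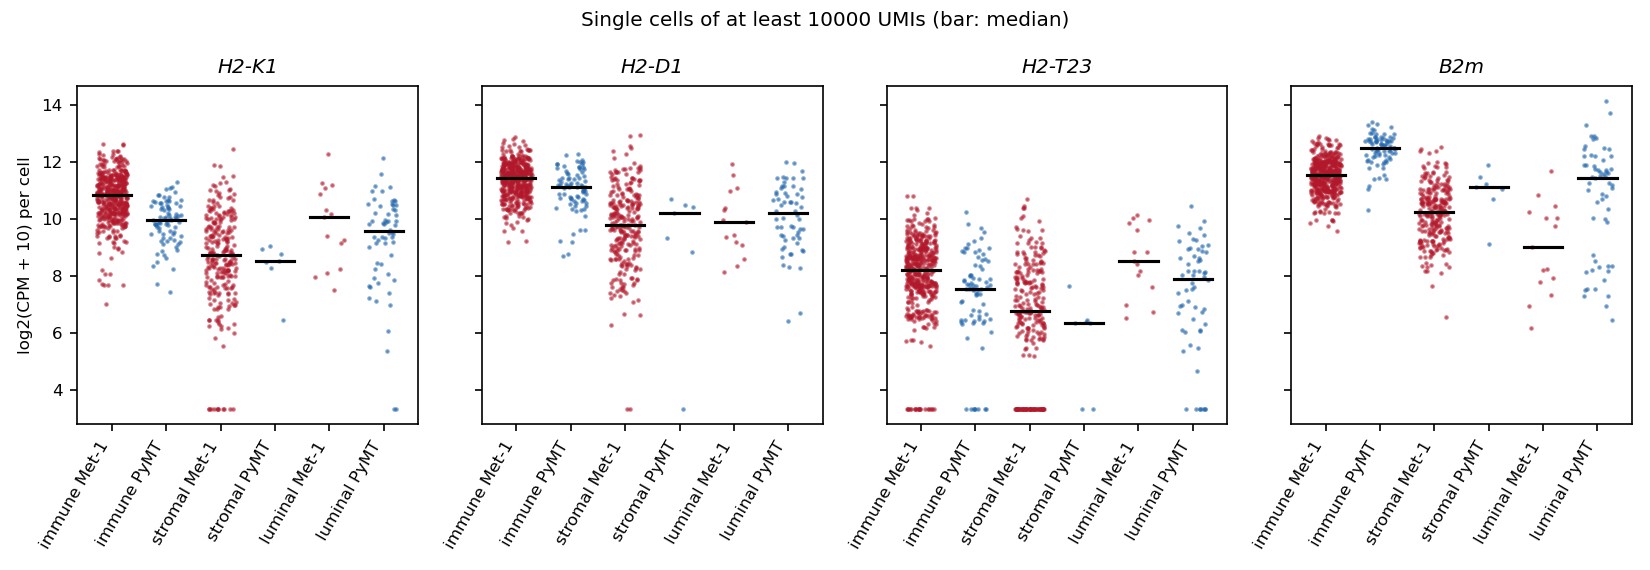
Log2(CPM + 10) of H2-K1, H2-D1, H2-T23 and B2m in single cells with at least 10000 UMIs (points) by compartment and library, with a bar at the median. The luminal cells of both libraries reach far lower in B2m than the immune cells, and the PyMT luminal cells have a higher median than the Met-1 ones.

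Thinned to 1000 UMIs, 88.2% of Met-1 immune, 68.1% of stromal and 43.3% of luminal cells had a B2m UMI, and 96.3%, 81.8% and 71.1% of the PyMT ones. For H2-K1 the shares were 79.9%, 41.2% and 63.3% in Met-1 and 55.8%, 27.3% and 56.6% in PyMT, with unthinned shares of 98.0%, 89.7%, 77.8%, 80.4%, 100% and 94.1% in the same order. The order of B2m and H2-K1 over the Met-1 compartments thus differed at equal depth too. H2-T23 was detected in 29.7% of Met-1 immune, 15.1% of stromal and 43.3% of luminal cells, and in 19.7%, 27.3% and 24.1% of PyMT ones. No class that should lack class I RNA exists here to set a background share.

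Within the immune compartment H2-Q7 was higher in T, NK and B cells than in macrophages and neutrophils. It stood at 720 CPM in Met-1 T cells (n = 293 cells), 615 in NK cells (84), 403 in B cells (232), 163 in macrophages (838) and 145 in neutrophils (38). A dendritic class, also myeloid, held only 5 Met-1 cells and 1 PyMT cell and entered no comparison, and in Met-1 it stood at 643 (453 to 886), level with the lymphoid classes. The PyMT levels were 522 in T cells (37 cells), 304 in B cells (27), 105.0 in macrophages (194) and 30.8 in neutrophils (184). Relative to macrophages it was 4.42-fold higher in Met-1 T cells (4.11 to 4.76; 7.58% of all genes called higher) and 4.98-fold in PyMT T cells (3.85 to 6.41; 8.22%). It was 3.78-fold higher in Met-1 NK cells (6.97%), and in B cells 2.48-fold in Met-1 (5.93%) and 2.90-fold in PyMT (9.13%). H2-Q7 was the 1 gene of the 10 called higher in each of these lymphoid comparisons. None of the 10 was called lower in T or NK cells, where 15.9% of all genes were lower in Met-1 T cells, 25.7% in PyMT T cells and 15.8% in Met-1 NK cells.

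The classical heavy chains were spread differently over the immune classes. H2-K1 was at 3101 CPM in Met-1 NK cells, 2388 in T cells, 1756 in B cells, 1604 in macrophages and 899 in neutrophils, and no neighbours in that order had overlapping intervals. In the PyMT library it was at 1788 in T cells, 1334 in B cells, 1081 in macrophages and 620 in neutrophils. H2-D1 had its highest Met-1 level in neutrophils, at 3686, then 3206 in NK cells, 2887 in macrophages, 2419 in T cells and 1920 in B cells. PyMT neutrophils, at 2115, stood below macrophages (2474) and T cells (2457), next to B cells (2110.4). Among these classes neutrophils were thus last for H2-K1 in both tumours, and first for H2-D1 in the Met-1 tumour with its 38 neutrophils but not in the PyMT tumour with 184. Of 4 measured MHC class II genes (at least 20 UMIs on a side), 4 were higher in Met-1 than PyMT neutrophils. Their median was 3.64 log2, beside 7.08% of all genes called higher. Whether RNA of other cells is part of the Met-1 neutrophil levels was not tested. Among classes of at least 10 cells, B2m was highest in macrophages in both tumours, at 3350 in Met-1 and 6518 in PyMT, and Met-1 B cells, at 1618, were 2.07-fold lower (17.4% of all genes called lower). Psmb8 stood at 668 in Met-1 T cells, 635 in NK cells, 393 in macrophages and 387 in B cells. Relative to macrophages, neutrophils were called lower in Tap1 in Met-1 (2.22-fold, on 6 UMIs; 30.0% of all genes lower and 7.67% higher) and in H2-Q7 (3.41-fold) and Psmb8 (2.53-fold) in PyMT (28.4%).

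The stroma of the Met-1 tumour held 242 fibroblasts and 104 mural cells, the contractile cells around vessels. Mural cells had 105 CPM of H2-Q7 and fibroblasts 26.8, 3.91-fold higher in mural cells (3.01 to 5.07; 4.05% of all genes called higher). H2-T23 went the other way, with 95.7 in mural cells and 219 in fibroblasts, 2.29-fold lower in mural cells (1.89 to 2.80; 8.44%). H2-K1 stood at 727 and 529, H2-D1 at 1577 and 988 and B2m at 1796 and 1194 in mural cells and fibroblasts, none of them called. The PyMT library had no mural cell.

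Between the tumours, B2m was lower in Met-1 than in PyMT in every compartment, while H2-K1 was higher in every compartment. B2m was 1.93-fold lower in Met-1 immune cells (1.90 to 1.97), 1.68-fold in stromal cells and 3.96-fold in luminal cells (3.61 to 4.35), and the rule was passed in luminal cells. The luminal gap therefore exceeded the ones in the other compartments. H2-K1 went the opposite way, with 1.86-fold more in Met-1 immune cells. Neither direction turned in any compartment under any setting, but luminal H2-K1 fell from 0.49 to 0.01 log2 without each gene's top cell. In luminal cells Tapbp was also called lower in Met-1, 2.29-fold, so that 2 of 10 genes were lower, beside 7.64% of all genes, and none was higher, beside 5.36%. Without the 1 Met-1 cell described above, the luminal log2 ratios were -2.44 for B2m, -1.34 for Tapbp and 0.07 for H2-K1.

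In immune cells H2-Q7 was the 1 gene called higher in Met-1, 2.52-fold (2.26 to 2.80), beside 4.84% of all genes, and none was lower, beside 2.51%. The immune classes were mixed differently in the 2 libraries, with neutrophils at 184 of 470 PyMT and 38 of 1666 Met-1 cells. With the classes weighted equally the log2 ratio of H2-Q7 went from 1.28 to 0.55, under the rule. Within macrophages 0 of 10 genes were called either way, where 5.17% of all genes were higher and 1.18% lower, and B2m stood at -0.96 and H2-K1 at 0.56 log2. In T cells too 0 of 10 were called (10.9% and 3.37% of all genes), with B2m at -0.89 and H2-K1 at 0.42. In B cells H2-T23 (1.09) and Tap2 (1.11, on 2 PyMT UMIs) were called higher beside 20.4% of all genes, and B2m lower (-1.19) beside 4.27%. In neutrophils 6 of the 10 genes had enough UMIs, of which H2-T23 was called higher (1.17), beside 5.64%, and none lower, beside 18.7%. In stromal cells H2-T23 was 2.65-fold higher in Met-1 (1.39 to 5.82), 1 of 10 beside 22.7% of all genes, on 9 PyMT UMIs in 11 cells, and none was lower, beside 5.32%. In fibroblasts alone it stood at 1.46 log2, beside 21.5% of all genes called higher. With 1 mouse tumour library a side, tumour model, library and animal cannot be told apart in any of these gaps.

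**Figure D4:**
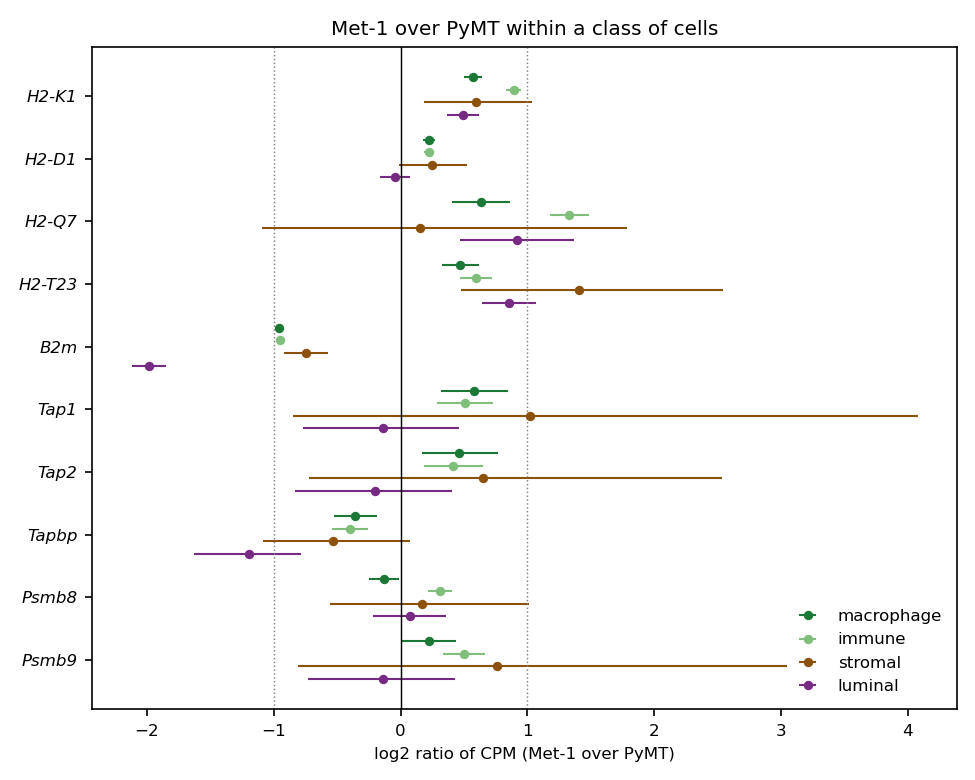
Log2 ratio of CPM, Met-1 over PyMT, of each gene in macrophages and in all immune, stromal and luminal cells (points, with 95% counting intervals); dotted lines mark 2-fold of the plain CPM ratio. B2m is below 0 and H2-K1 above 0 in all 4 sets of cells, and B2m is farthest down in luminal cells.

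The other genes of the pathway gave a frame for the 10. Of the other class I heavy chains, 4 of 9 measured (at least 20 UMIs on a side) were lower in Met-1 stromal than immune cells and none was higher, beside 9.58% of all genes lower at that same minimum, with H2-M2 at -3.16 and H2-Q6 at -2.72 log2. In Met-1 luminal cells 3 of 9 were lower, beside 12.8% of all genes, H2-M3 at -2.47, and H2-M2 was at 0 UMIs, at least 21.2-fold lower against a floor of 3 counts in the luminal sum. In PyMT 4 of 6 were lower in both stromal and luminal cells, beside 25.1% and 13.4% of all genes. These 4 shares at the minimum of 20 UMIs also go with the lists that follow. H2-Q6, a close relative of H2-Q7, was also called higher in Met-1 than PyMT immune cells (1.03), as H2-Q7 was. Of the 50-base windows at the end of H2-Q7 transcripts, 6.21% also occur in other genes, most often in H2-Q5. Whether reads of H2-Q6 and H2-Q7 were mixed was not tested. Equal class weights, which took H2-Q7 under the rule, are not given for H2-Q6. The other loading and trimming genes followed the members less. None of 6 was called lower in Met-1 stroma, where Pdia3, a chaperone of the loading complex, stood at 0.89, and Tapbpl, a tapasin relative, was the 1 lower in luminal cells of both tumours (-1.69 and -1.03).

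Inducible and constitutive proteasome subunits parted in luminal cells. Psmb10, the remaining inducible catalytic subunit, was lower in luminal than immune cells, by -1.65 log2 in Met-1 and -1.16 in PyMT. The constitutive subunits that these replace, Psmb5, Psmb6 and Psmb7, stood at 0.93, 0.66 and 0.45 in Met-1 and 0.35, 0.51 and 1.06 in PyMT luminal cells, on the opposite side of 0, with Psmb7 in PyMT called. Genes with 50 UMIs on both sides had medians of 0.44 in Met-1 and 0.37 in PyMT in this comparison, close to several of these values. Whether the constitutive subunits keep their side of 0 under other scalings was not tested. In Met-1 stromal cells the constitutive subunits were near level at 0.43, -0.02 and -0.07, while Psme1, a subunit of the PA28 activator, was lower (-1.58). In luminal cells Psmb8 and Psmb9 thus went with Psmb10 and not with the constitutive set. In stroma Psmb10 was not called: of Psmb10, Psme1 and Psme2, 1 of 3 was lower in Met-1 (Psme1) and 0 of 3 in PyMT.

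**Figure D5:**
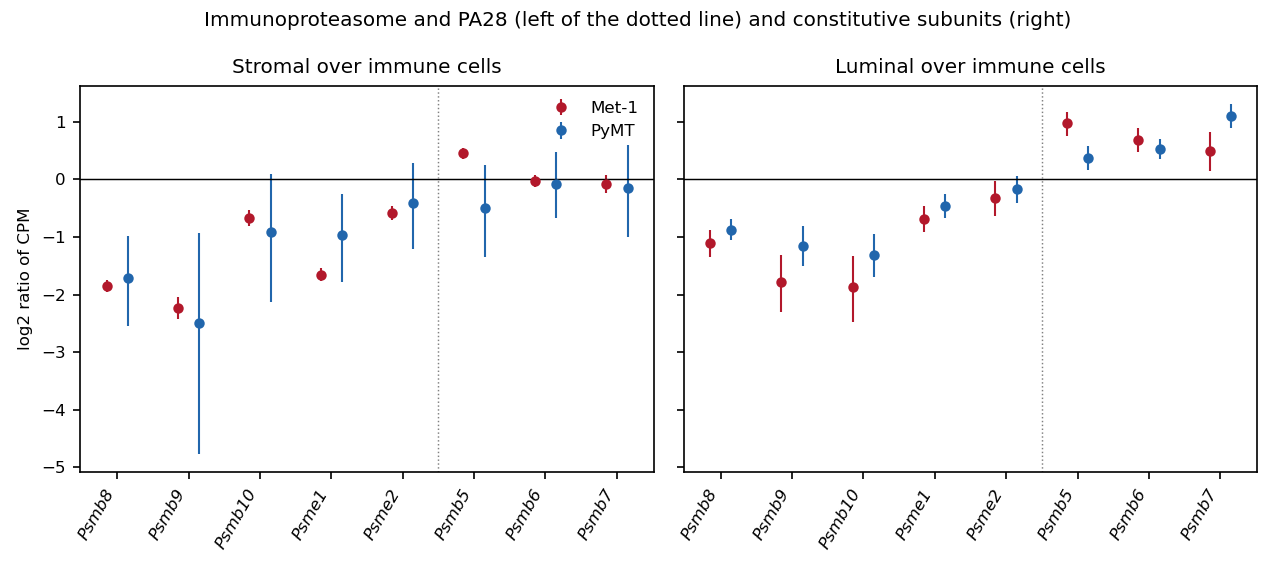
Log2 ratio of CPM in stromal and luminal over immune cells for the inducible catalytic subunits and PA28 subunits (Psmb8, Psmb9, Psmb10, Psme1, Psme2, left of the dotted line) and the constitutive catalytic subunits (Psmb5, Psmb6, Psmb7, right), both libraries. In luminal cells Psmb8, Psmb9 and Psmb10 are below 0 and Psmb5, Psmb6 and Psmb7 above it.

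Of the class I transcription factors, 2 of 11 were lower in Met-1 stromal and 2 of 11 in luminal cells, and 3 of 10 and 1 of 10 in PyMT, too few to be set apart from the shares over all genes. Nlrc5, the transactivator of class I genes, stood at 28.4 CPM in Met-1 immune cells, 3.32 in stromal cells and 1.52 in luminal cells, a single UMI, called lower in both (-1.53 and -1.74 log2). Nfkb1 was lower too, at -1.34 and -1.72, and in PyMT the interferon regulatory factor Irf2 was lower in stromal (-2.11) and luminal cells (-1.27). Of interferon gamma and its signalling genes, 5 of 6 were lower in Met-1 luminal cells, with the receptor chain Ifngr1 at -2.79 and the feedback inhibitor Socs1 at -2.19, and 3 of 6 in PyMT luminal cells, with Ifngr1 at -2.17. In Met-1 stroma 1 of 6 was lower, Ifng itself, a T and NK cell product (-1.46), and in PyMT stroma 3 of 6, with Ifngr1 at -2.02. Interferon-induced genes were called in both directions except in PyMT stroma, where 0 of 9 were higher and 4 lower, with Cxcl10 at -3.82. In Met-1 stroma 3 of 10 were higher, beside 15.8% of all genes, among them the GTPase Iigp1 (3.08) and the chemokine Cxcl9 (1.87), and 2 lower, Cxcl10 (-2.02) and Gbp4 (-1.74). Met-1 over PyMT stroma had 6 of 10 higher, beside 18.6% of all genes, with Cxcl9 at 3.45. The PyMT side has 11 cells, and a gene could pass the minimum on Met-1 UMIs alone. With 50 UMIs required on both sides, 10 of all genes were called higher in that comparison, instead of 2056. In luminal cells Iigp1 was higher in both tumours (1.33 and 1.91) and Cxcl10 lower (-4.08 and -4.50). MHC class II genes, which serve presentation to CD4 T cells by specialised cells, were lower in stromal and luminal cells of both tumours, 5 of 5 in each, with Cd74 at -6.61 and -7.60 in Met-1 stromal and luminal cells and -7.74 and -7.29 in PyMT ones.

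The genes most like the mean of the members across the 14 sums of a class and library with at least 10 cells were Rps9, with a Pearson correlation of 0.73, Fau (0.72), Tmsb4x (0.72), Rps13 (0.66) and Rps25 (0.64). They were drawn from the 91 genes outside the marker lists with 50 UMIs in every sum, which restricts them to abundant genes. The sums share 2 libraries and differ in depth.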

How the data were processed

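The deposited matrices hold UMI counts (whole numbers for each gene row in each barcode). Per the submitters' processing notes, Cell Ranger 3.1.0 and build mm10 were used. The annotation release, strand setting and cell calling are not given in the sources used here. Filters asked for 500 or more UMIs, 200 or more genes and no more than 10% mitochondrial UMIs (13 genes). Scrublet doublet calls (scanpy 1.11.5) were removed, 23 in Met-1 and 1 in PyMT, at an expected 0.8% per 1000 barcodes, capped at 2 times that rate. The 2 libraries shared 0 barcodes. Placed cells were summed and CPM, ratios and intervals computed (scipy 1.17.1, numpy 2.4.6, pandas 2.3.3), with no test, since each group has 1 library. The ratio code was tested on simulated data. Promoter windows were aligned with Biopython 1.88. The members and all lists were chosen with earlier results of these data known. Named were the 10 members, at most the 2 highest and 2 lowest genes of a pathway list, and the 5 genes most correlated with the members' mean. Depth limits small sums: 5 UMIs or fewer give wide intervals. Alternatives tried were other scalings, filters, marker cuts, equal class weights, cell means and leaving out the top cell. Rows that share a symbol with another row (71) include none of the members.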

Additional observations from a re-analysis of the deposited data

How the results depend on the processing

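No paired analysis was possible because each group has 1 library. No replicate was left out for the same reason.

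Over 34 member ratios past 2-fold, all 472 values under the alternatives run had the same direction. Of these, 433 stayed past 2-fold, 26 fell under it and 13 had too few UMIs, and 14 of the 34 ratios were past 2-fold in every alternative run. The 34 were picked for being past 2-fold. Settings that change only the UMI minimum or the constant added to CPM cannot turn a direction. Directions of members not called did turn, as for H2-D1 in Met-1 luminal over stromal cells in 4 of 15 alternatives. The causes of the shifts below were not tested.

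The counts of members called moved as follows. Median-of-ratios scaling gave 0 higher and 2 lower in Met-1 luminal over stromal cells (3 and 0 as reported), 9 lower in Met-1 luminal over immune cells (6 as reported), 5 lower in PyMT luminal over immune cells (2 as reported) and 3 higher in Met-1 over PyMT stromal cells (1 as reported). The all-gene counts, in the same order, were 390 higher and 2167 lower of 9156, 2035 lower of 10029, 1346 lower of 5890 and 3011 higher of 9059. Cell means gave 0 higher in Met-1 luminal over stromal cells, 0 lower in PyMT luminal over immune cells and 1 lower in Met-1 over PyMT macrophages (0 as reported). Beside these stood 964 higher of 9156, 1111 lower of 5890 and 114 lower of 8466 over all genes. Each gene without its top cell on each side gave 1 higher and 2 lower in Met-1 luminal over stromal cells, 9 lower in Met-1 luminal over immune cells and 2 higher in Met-1 over PyMT stroma. The shares over all genes were 375 higher and 2065 lower of 8939, 1847 lower of 9893 and 3810 higher of 8851. With 50 UMIs on both sides, 2 were lower in PyMT stromal over immune cells (8 as reported), 0 higher in PyMT luminal over stromal cells (4 as reported) and 0 higher in Met-1 over PyMT stroma. Here 18 of 307, 20 of 300 and 10 of 389 genes were called these ways. Own markers of at least 90% gave 0 lower in PyMT luminal over immune cells, and leaving mitochondrial, ribosomal, immunoglobulin and EGFP rows out of the total gave 1. These settings called 1076 of 5411 and 1007 of 5890 genes lower. Equal class weights gave 0 higher in Met-1 over PyMT immune cells (1 as reported), beside 468 of 9931 genes. Chosen after seeing the data, leaving out luminal cells with basal marker UMIs gave 1 lower in PyMT luminal over immune cells, cells of at least 5000 UMIs gave 2 higher in Met-1 over PyMT stroma, and leaving out the 1 Met-1 luminal cell gave 1 higher and 1 lower in Met-1 luminal over stromal cells and 8 lower in Met-1 luminal over immune cells. For all genes these were 1066 lower of 5463, 2107 higher of 8985, 594 higher and 1716 lower of 9142, and 1491 lower of 10010.

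Over all genes, counts called higher and lower ranged with the setting from 920 to 2778 and 494 to 1974 in Met-1 stromal over immune cells (2027 and 1227 as reported), and from 443 to 1763 and 75 to 2408 in Met-1 luminal over immune cells (1039 and 1484). In PyMT the luminal over immune counts ranged from 388 to 1637 and 188 to 1346 (1024 and 1069), and those of Met-1 over PyMT luminal cells from 113 to 565 and 67 to 518 (221 and 315). They ranged from 319 to 1126 and 84 to 2365 in Met-1 luminal over stromal cells (603 and 1700), from 85 to 2097 and 18 to 2060 in PyMT stromal over immune cells (544 and 1469) and from 20 to 2219 and 60 to 1504 in PyMT luminal over stromal cells (1107 and 300). For Met-1 over PyMT they ranged from 267 to 1476 and 142 to 398 in immune cells (481 and 249), from 10 to 3810 and 105 to 737 in stroma (2056 and 482) and from 183 to 1205 and 85 to 158 in macrophages (438 and 100). Median-of-ratios scaling moved the share of higher among called genes from 41.2% to 23.1% in Met-1 and from 48.9% to 34.1% in PyMT luminal over immune cells, from 26.2% to 15.3% in Met-1 luminal over stromal cells, from 81.0% to 92.7% in Met-1 over PyMT stroma and from 41.2% to 29.1% in its luminal cells. It shifted the median of all genes by -0.31 and -0.35 log2 in the luminal over immune comparisons of Met-1 and PyMT and by 0.32 in Met-1 over PyMT stroma.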
